A study of Homo sapiens with 9 samples.

Results

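The genes described here encode the enzymes that attach ubiquitin to proteins and remove it, in WI-38 cells treated with doxorubicin or with its carrier. They were the genes of the deposited table whose symbols belong to the families UBE2, UBE3, UBE4, HERC, HECTD, NEDD4, ITCH, SMURF, RNF, TRIM, CBL, cullin, SKP1 and SKP2, FBXO, FBXW, FBXL, KLHL, USP, OTUD and UCHL. The pattern took 143 symbols, of which 3 readthrough or antisense symbols with a hyphen and 2 symbols left out by name were dropped, so that 138 of 6499 listed genes remained. By symbol these were 9 E2 conjugating enzymes, 13 HECT ligases, 2 U-box ligases, 29 RNF ligases, 19 TRIM proteins, 1 CBL ligase, 1 cullin, 23 F-box proteins, 14 KLHL proteins and 27 deubiquitinases.

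WI-38 cells are human diploid fibroblasts, established as a line from lung and used here at population doubling 30. Control cells received DMSO and then medium with DMSO for 48 h, and doxorubicin cells, the senescence model, were exposed for 12 h to 1 μM doxorubicin before the same 48 h in that medium. Doxorubicin is an anthracycline that breaks DNA through topoisomerase II. Each of these groups had 3 libraries, and 3 further libraries of cells that had oridonin after doxorubicin were not analysed here. The study's methods give independent experiments as a general rule, but neither they nor the labels say that the libraries of a group came from separate cultures, so a p-value measures the spread between these libraries only, which may be technical.

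The values were taken as TPM, a length-corrected unit of transcript abundance, which compares levels between genes per length. The table holds only genes that passed the authors' own fold and p limits on these same libraries, so none of the tests here is independent of that choice, and a gene outside the table was not analysed here. The listed genes held 54.3 to 54.8% of all TPM in control libraries and 58.6 to 60.0% in doxorubicin libraries. Of the listed fibroblast markers, 5 of 9 were in the table (COL1A1, COL1A2, COL3A1, PDGFRA and PDGFRB), with a summed level of 5842 to 6195 TPM in control and 3930 to 4616 TPM in doxorubicin libraries. Of 4 epithelial markers KRT8 and KRT18 were in the table, at 33.8 to 36.5 TPM in sum in control and 48.2 to 51.3 TPM after doxorubicin. The leukocyte list had 2 of 3 markers in the table, of which PTPRC lay between 0.01 and 0.62 TPM and CD68, also a lysosomal protein of other cells, made up the rest of a sum of 45.0 to 49.0 TPM in control and 87.4 to 93.7 TPM in doxorubicin libraries. None of 3 endothelial markers was listed. The part of these marker changes in the results below was not tested.

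Ubiquitin is a small protein that is activated by an E1 enzyme, passed to an E2 conjugating enzyme and joined to a lysine of a target with the help of an E3 ligase. HECT ligases carry the ubiquitin themselves, while RING ligases, to which most RNF and TRIM proteins belong, bring the loaded E2 to the target. Cullin ligases are modular, with a cullin scaffold, a RING subunit and an exchangeable receptor, such as an F-box protein for CUL1 or a KLHL protein for CUL3. Deubiquitinases cut ubiquitin off again. Chains made by these enzymes send proteins to the proteasome, and the timed destruction of cyclins and their inhibitors by the anaphase-promoting complex (APC/C) and the SCF ligases drives the cell cycle, while other chains mark damaged DNA.

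Most of these genes were lower after doxorubicin. A gene is called here when its fold change exceeds 1.2 either way and its adjusted p is under 0.05, in a limma fit over the 5721 genes whose mean reached 1 TPM. Of the 138 genes, 132 were tested and 96 were called, 16 up and 80 down. This is 72.7% of the genes tested, against 71.2% of all genes tested in the table. The calls up made up 12.1% of the genes, against 22.7% of all genes tested, and the calls down 60.6%, against 48.5%. Their median log2 fold change was -0.43, and that of all genes tested was -0.28, a difference of -0.15. In 106 of the 132 genes the doxorubicin libraries lay all above or all below the control libraries (25 above, 81 below), which held for 80.7% of all genes tested. The ratio of the group means was under 0.5 in 15 called genes and over 2 in 2 called genes. No share over all genes tested was computed for these ratios. Of the 2, RNF128 reached the 1 TPM limit only through the doxorubicin libraries. RNF157 and RNF169, among the 15, reached it only through the control libraries.

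The balance of rises and falls depended on how the libraries were scaled. Both alternative scalings were computed from the genes tested in this preselected table alone. By design they bring the median of all genes tested near 0, so that shift is no result. Which scale comes nearest to RNA per cell was not tested. After quantile normalization the median of all genes tested moved to -0.01 and that of the ubiquitin enzymes to -0.14, with 31 called up and 35 down against 33% and 28.7% of all genes tested. When each library was divided by its median ratio, the medians were -0.08 and -0.22, with 36 called up and 58 down against 44% and 36.2% of all genes tested. Rises made up 16.7% of the calls on the TPM scale, 47.0% after quantile normalization and 38.3% after median ratio scaling, and for all genes tested 31.9%, 53.5% and 54.8%. On each scale the ubiquitin enzymes held a smaller share of rises than the whole table. Called in the same direction on all 3 scales were 16 genes up and 34 down of the 132 tested. Over all 5721 genes tested, 1221 were so called up and 1484 down. No call of the enzymes turned into a call of the other direction. Unless stated otherwise, log2 fold changes below are on the log2(TPM + 1) scale, which understates the change of genes with low values.

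**Figure D1:**
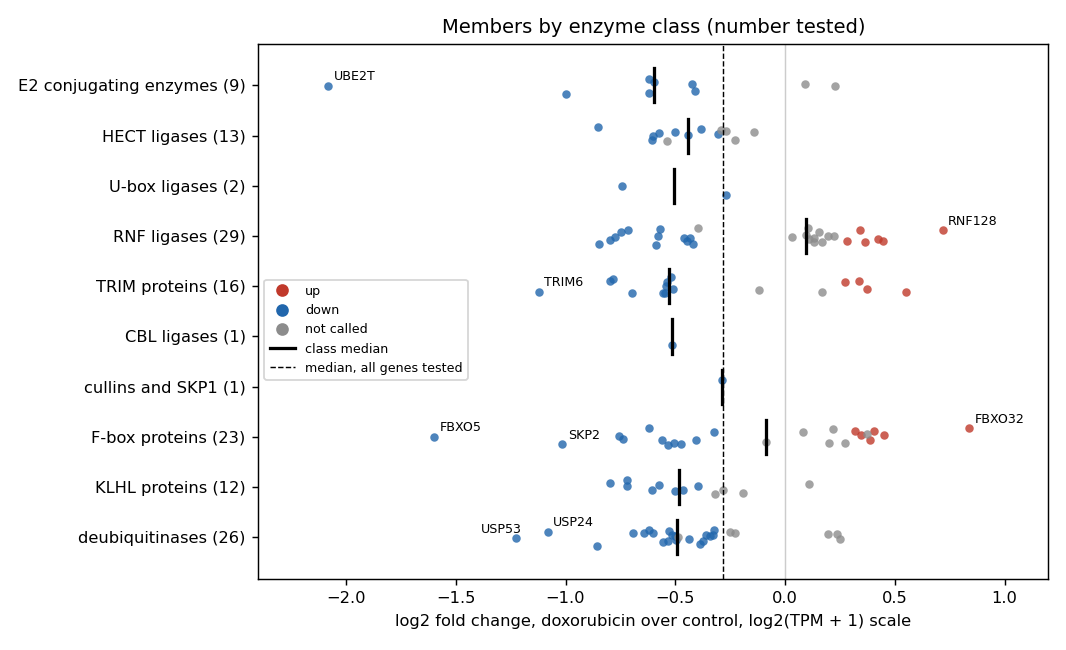
Log2 fold change of doxorubicin over control on the log2(TPM + 1) scale (x axis) for each of the 132 genes tested, in rows by enzyme class with the number tested. Red points were called up, blue points called down and grey points not called, the short black line is the median of the class and the dashed line the median of all genes tested, -0.28. All 16 red points lie among the RNF, TRIM and F-box rows.

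The classes differed in how their calls were split, as the plot of fold changes by class shows. All 16 rises belonged to 3 classes, with 6 of 29 RNF ligases (20.7%), 4 of 16 TRIM proteins tested (25%) and 6 of 23 F-box proteins (26.1%). These shares were near the 22.7% called up over all genes tested. No E2 enzyme, HECT ligase, U-box ligase, KLHL protein or deubiquitinase was called up on the TPM scale, while on the median ratio scale 2 E2 enzymes, 1 KLHL protein and 3 deubiquitinases were. Called down were 7 of 9 E2 enzymes (77.8%), 8 of 13 HECT ligases (61.5%), both U-box ligases, CBL and CUL5. So were 12 RNF ligases (41.4%), 10 TRIM proteins (62.5%) and 11 F-box proteins (47.8%). Of the KLHL proteins tested 8 of 12 fell (66.7%), and of the deubiquitinases tested 20 of 26 (76.9%). Over all genes tested 48.5% were called down. The class medians on the log2 scale were -0.60 for E2 enzymes, -0.53 for TRIM proteins, -0.49 for deubiquitinases, -0.48 for KLHL proteins and -0.44 for HECT ligases. The median of the RNF ligases was 0.09, and it was above 0 on the other scales too, at 0.22 after quantile normalization and 0.32 after median ratio scaling. The F-box median of -0.09 turned to 0.23 and 0.13 on those scales. These are counts and medians of listed genes, and no test compared the classes with each other.

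**Figure D2:**
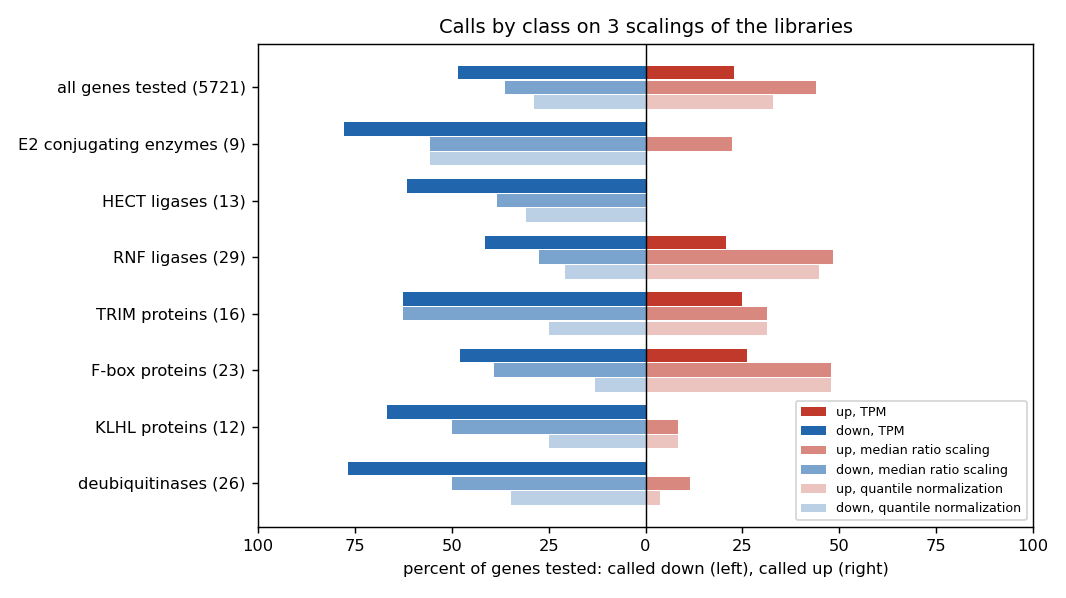
Percent of the genes tested that were called down (left of 0, blue) or up (right of 0, red) after doxorubicin, for all 5721 genes tested and for each class with more than 2 genes, with the number tested beside each name. The darkest bars are the TPM scale, the middle ones median ratio scaling and the palest ones quantile normalization. Over all genes tested the rescaled blue bars are shorter and the red ones longer, TRIM proteins have blue bars of equal length for TPM and median ratio scaling, and HECT ligases have no red bar on any scale.

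The steepest falls were those of UBE2T and FBXO5, which act in DNA crosslink repair and cell division. The cell cycle list held 7 genes, of which UBE2T, UBE2S, FBXO5, SKP2, TRIM59 and USP37 were in the table and FBXO43 was not analysed here. All 5 that were tested fell, where 48.5% of all genes tested were called down. Their median log2 fold change was -1.01, and on the quantile scale 4 of the 5 were called, all down. In RNA of a whole culture, fewer cells that express such a gene and less of its RNA per cell cannot be told apart.

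UBE2T (ENSG00000077152, chromosome 1, 202331657 to 202341980, minus strand, GRCh38) encodes the E2 that puts ubiquitin on FANCD2 in the Fanconi anaemia pathway of crosslink repair. It was measured at 21.6, 25.8 and 26.6 TPM in the control libraries and at 4.16, 5.64 and 5.44 TPM in the doxorubicin libraries. The groups lay far apart, with the highest doxorubicin library below every control library by a wide margin. The mean went from 24.6 ± 2.66 to 5.08 ± 0.803 TPM (mean ± SD, n = 3 each), a 4.85-fold fall, and the log2 fold change was -2.08 ± 0.13 (SE), at a limma adjusted p of 6.99e-07. No other of the 132 enzymes fell by as much.

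FBXO5 (ENSG00000112029, chromosome 6, 152970519 to 152983579, minus strand), also called EMI1, is an F-box protein that holds the APC/C inactive until mitosis. It stood at 6.26, 5.70 and 6.07 TPM in control and at 1.28, 1.05 and 1.65 TPM in doxorubicin libraries. Control libraries were close to each other and doxorubicin libraries were all low. The fall was 4.53-fold, and the log2 fold change was -1.60 ± 0.13 (SE), at a limma adjusted p of 5.46e-06.

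UBE2S (ENSG00000108106, chromosome 19, 55399745 to 55407777, minus strand), the E2 that lengthens the chains begun on APC/C substrates, was among the 10 most abundant of the enzymes in control cells. Its values were 52.6, 59.7 and 46.3 TPM in control and 24.1, 24.5 and 29.1 TPM in doxorubicin libraries, without overlap. The log2 fold change was -1.0 ± 0.11 (SE), at a limma adjusted p of 3.57e-05. UBE2S overlaps the gene RPL28 on the opposite strand. The use of strand in counting is not stated, so reads of the pair may not be separated.

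SKP2 (ENSG00000145604, chromosome 5, 36151989 to 36184319, plus strand) is the SCF receptor that sends the cyclin-dependent kinase inhibitor CDKN1B to the proteasome. It was at 6.53, 6.68 and 6.21 TPM in control and at 2.82, 2.11 and 3.26 TPM in doxorubicin libraries, which all lay lower. The log2 fold change was -1.01 ± 0.14 (SE), at a limma adjusted p of 0.000156. TRIM59 varied more, at 2.41, 6.23 and 4.80 TPM in control against 2.15, 2.22 and 1.76 TPM. It fell by 0.78 on the log2 scale, at a limma adjusted p of 0.0138, and its call was lost after quantile normalization. It overlaps SMC4, a condensin gene, on the opposite strand, and since the use of strand in counting is not stated, reads of the pair may not be separated. USP37, a deubiquitinase of cyclin A, was too low to be tested, with 0.520 ± 0.139 TPM in control and 0.193 ± 0.0681 TPM after doxorubicin (SD, n = 3 each).

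**Figure D3:**
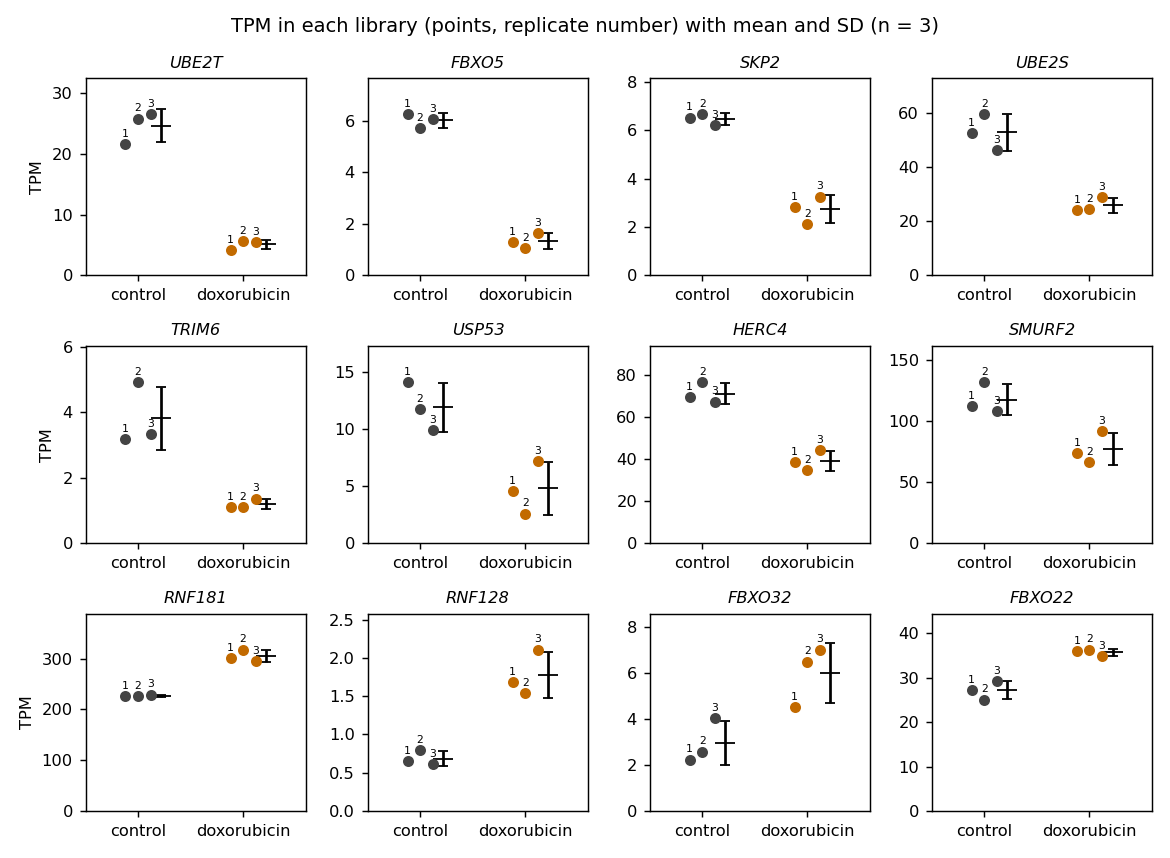
TPM (y axis, from 0) of 12 named genes in the 3 control and 3 doxorubicin libraries, with the replicate number above each point and the mean with its SD (n = 3) as the black bar beside the points. Groups overlap in none of the 12 panels. The upper 8 genes are lower in every doxorubicin library, and RNF181, RNF128, FBXO32 and FBXO22 are higher.

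Genes of the cell cycle often carry CCAAT boxes, which NF-Y binds, and a cell cycle homology region of the form TTTGAA near their start. The stretches before the starts of UBE2T, UBE2S and FBXO5, which fell, and of RNF181, the most abundant enzyme and one that rose, are shown to place these letters. They come from RefSeq on GRCh38.p14, read 5′ to 3′ on the strand of the gene, and end at the start site or where an annotated exon of the gene begins. Capitals mark CCAAT and TTTGAA on either strand, so that ATTGG and TTCAAA are their reverse complements. The UBE2T stretch is chr1:202341981-202342136, minus strand.
UBE2T: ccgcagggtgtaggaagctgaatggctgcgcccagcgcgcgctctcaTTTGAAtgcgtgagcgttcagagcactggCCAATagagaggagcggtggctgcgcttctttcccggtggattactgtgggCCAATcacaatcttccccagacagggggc
The UBE2S stretch is chr19:55407789-55407988, minus strand.
UBE2S: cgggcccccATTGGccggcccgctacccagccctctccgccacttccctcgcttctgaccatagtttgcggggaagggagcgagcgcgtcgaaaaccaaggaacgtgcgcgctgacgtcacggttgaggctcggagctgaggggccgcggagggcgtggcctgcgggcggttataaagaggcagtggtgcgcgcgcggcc
The FBXO5 stretch, from the second of its RefSeq starts, is chr6:152983042-152983233, minus strand.
FBXO5: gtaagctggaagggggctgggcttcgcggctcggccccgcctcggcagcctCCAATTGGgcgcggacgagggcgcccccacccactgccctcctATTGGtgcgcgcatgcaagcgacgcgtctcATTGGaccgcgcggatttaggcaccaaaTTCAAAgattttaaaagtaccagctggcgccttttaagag
The RNF181 stretch is chr2:85595545-85595724, plus strand.
RNF181: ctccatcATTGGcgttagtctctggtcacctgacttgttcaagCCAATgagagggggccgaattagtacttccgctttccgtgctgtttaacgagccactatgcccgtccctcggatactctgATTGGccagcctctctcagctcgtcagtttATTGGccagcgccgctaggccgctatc

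Counted from the start, with the base before it as -1, UBE2T held TTTGAA at -153 and CCAAT at -124 and -73. The 200 bases before the first RefSeq start of FBXO5 held neither motif, while those shown, before its second start, held CCAAT or ATTGG at 4 places, at -141, -138, -98 and -68, the former 2 of which overlap, and TTCAAA at -40. UBE2S held 1 ATTGG, and the stretch of SKP2 outside its exons, 78 bases long, held neither motif. RNF181 held 4 boxes and no TTTGAA, so the CCAAT letters stood before a gene that fell and a gene that rose alike. RefSeq windows of 300 bases, from 250 before to 50 after the start, matched 114 of the 138 genes. CCAAT was in 25 of 70 genes called down, 5 of 11 called up and 39.7% of all 27305 genes with a window. TTTGAA was in 8 of the 70, 1 of the 11 and 18.2% of all genes, and both were in 9 of the 114 genes and 7.26% of all genes. Those 9 were FBXO5, UBE2T, RNF169, RNF26 and UBE4B, which fell, and KLHL36, NEDD4L, RNF5 and UBE2F, which were not called. A match of letters is a description of the window and shows no bound factor.

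Among the other E2 enzymes the falls were smaller and close to each other. UBE2G1, an E2 of cullin ligases, went from 21.0 ± 1.29 to 13.4 ± 2.48 TPM (mean ± SD, n = 3 each), a log2 difference of -0.62. UBE2H, the E2 of the CTLH ligase, and UBE2J1, an E2 anchored in the membrane of the endoplasmic reticulum, had log2 fold changes of -0.62 and -0.60, and all 3 were called on all 3 scales. UBE2Q2 and UBE2O fell on the TPM scale only. The NEDD8 enzymes stood apart from these, since UBE2M and UBE2F charge cullins with NEDD8, a relative of ubiquitin that switches cullin ligases on. UBE2M was at 114, 115 and 119 TPM in control and 123, 124 and 123 TPM in doxorubicin libraries. UBE2F was at 70.1, 65.4 and 72.1 TPM and then at 84.5, 77.3 and 81.8 TPM. Both were higher in every doxorubicin library, by log2 differences of 0.09 and 0.23, and neither passed the fold limit on the TPM or the quantile scale, while both were called up after median ratio scaling, at 0.33 and 0.47.

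All 13 HECT genes had a negative log2 fold change on the TPM scale, from -0.85 to -0.14, and 8 were called. Without doxorubicin replicate 3 the number called was 12, and without control replicate 2, doxorubicin replicate 1 or doxorubicin replicate 2 it was 6. HERC4 (ENSG00000148634, chromosome 10, 67921899 to 68075348, minus strand) was at 69.5, 76.9 and 67.4 TPM in control and at 38.4, 34.8 and 44.4 TPM in doxorubicin libraries, without overlap. Its log2 fold change was -0.85 ± 0.10 (SE), at a limma adjusted p of 4.63e-05. SMURF2 (ENSG00000108854, chromosome 17, 64542295 to 64662068, minus strand), which ubiquitinates TGF-beta receptors and SMAD proteins, was the second most abundant of the enzymes in control cells. It was at 112, 132 and 108 TPM in control and at 73.8, 66.1 and 91.7 TPM after doxorubicin, where replicate 3 came nearest to control. Its log2 fold change was -0.60 ± 0.12 (SE), at a limma adjusted p of 0.00159. UBE3C, which works at the proteasome, and NEDD4, a ligase of membrane proteins, fell by 0.60 and 0.50 on the log2 scale, and with HERC4 and SMURF2 they were the 4 HECT genes called down on all 3 scales. The related NEDD4L, which acts on the epithelial sodium channel, was at 6.89 ± 0.603 and 6.17 ± 0.644 TPM (SD, n = 3 each) and was not called. With ITCH, a ligase known from T cell tolerance, 3 of the 4 listed genes of this family fell, and SMURF1 was not analysed here. Over all genes tested 48.5% were called down. On the quantile and median ratio scales 2 of the 4 were called down, against 28.7% and 36.2% of all genes tested. ITCH was at 20.1, 22.9 and 21.1 TPM in control and at 15.1, 16.2 and 17.2 TPM after doxorubicin, all lower. Its call, at a log2 fold change of -0.38, was lost on the quantile and median ratio scales, at -0.20 and -0.15. The giant ligases HERC1 and HERC2 were not called either, at log2 fold changes of -0.23 and -0.29, and their groups overlapped. HERC2P3 is an annotated pseudogene and could share reads with HERC2.

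Of the TGF-beta list, SMURF2 and RNF111, which degrades inhibitors of the pathway, fell, while NEDD4L, TRIM33 and USP11 were not called. The call of RNF111 (log2 fold change -0.43) was lost on the other scales, at -0.08 and -0.22, and also without control replicate 2, at -0.35, or doxorubicin replicate 2, at -0.32. Both U-box enzymes, which lengthen ubiquitin chains, fell on the TPM scale. UBE4A went from 6.67, 8.27 and 6.81 TPM to 3.89, 3.07 and 4.96 TPM. Its log2 fold change of -0.74 ± 0.16 (SE), at a limma adjusted p of 0.00192, was called on every scale. UBE4B, at -0.27, lost its call on the other scales, at -0.16 and -0.04, and without control replicate 1, at -0.22, doxorubicin replicate 1, at -0.26, or doxorubicin replicate 2, at -0.23. CBL, which removes activated receptor tyrosine kinases from the membrane, went from 5.33 ± 0.0777 to 3.43 ± 0.162 TPM (mean ± SD, n = 3 each), a log2 difference of -0.51, and its call was lost after quantile normalization.

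Of the RNF ligases, 16 of 29 lay above the median of all genes tested, as did 12 of 23 F-box proteins. Over all genes tested 2860 of 5721 lie above it by definition, so these counts are near that share. RNF181 (ENSG00000168894, chromosome 2, 85595725 to 85597613, plus strand), a small RING ligase, was the most abundant of the 138 genes in both groups. It was at 226, 226 and 229 TPM in control and at 301, 318 and 295 TPM in doxorubicin libraries. Control libraries were nearly equal and every doxorubicin library was higher, and the log2 fold change was 0.42 ± 0.05 (SE), at a limma adjusted p of 8.98e-05. RNF128 (ENSG00000133135, chromosome X, 106693794 to 106796993, plus strand), known as GRAIL for its part in T cell anergy, had a low level. Its control mean of 0.683 TPM lay under the 1 TPM limit for testing, which the gene reached only through the doxorubicin libraries, so its test is not independent of that limit. It went from 0.65, 0.79 and 0.61 TPM to 1.68, 1.54 and 2.11 TPM, 2.60-fold, and the log2 fold change was 0.72 ± 0.13 (SE), at a limma adjusted p of 0.00102. RNF25, RNF167, which sits on lysosomes and endosomes, and RNF31, the catalytic subunit of the complex that makes linear ubiquitin chains, rose by 0.45, 0.36 and 0.34 on the log2 scale, and with RNF181 and RNF128 these were called at the 1.2 fold limit in every alternative fit that tested them. RNF19B, a sixth call at 0.28, lost it without any 1 of 5 libraries, at values from 0.22 to 0.33. RNF25, RNF167 and RNF31 overlap STK36, SLC25A11 and PSME2 on opposite strands, and reads of these pairs may not be separated. RNF7, a RING subunit of cullin ligases and the fourth most abundant gene in control cells, was at 106, 101 and 108 TPM in control and at 119, 131 and 106 TPM after doxorubicin, with overlap, and was not called on the TPM scale.

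Of the RNF genes that fell, RNF182 went from 4.13 ± 0.131 to 1.87 ± 0.343 TPM (mean ± SD, n = 3 each), a log2 difference of -0.85, and RNF41, a ligase of the receptor ERBB3, from 37.0 ± 2.84 to 21.0 ± 4.12 TPM with one of -0.80. RNF138 and RNF169, which act at DNA breaks, had log2 fold changes of -0.78 and -0.58, and RNF4, which recognises proteins tagged with SUMO, had one of -0.59. RNF169, at 1.72 TPM in control and 0.817 TPM after doxorubicin on average, reached the limit for testing only through the control libraries. RNF138 was at 6.22, 4.33 and 3.98 TPM in control and at 2.3, 2.81 and 2.04 TPM after doxorubicin. Its groups did not overlap, and control replicate 1 was the highest library. RNF4 kept its call on all 3 scales, while RNF138 and RNF169 lost theirs after quantile normalization, at -0.41 and -0.27.

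The list of enzymes that act on damaged chromatin had 10 of 22 genes in the table, and on the TPM scale 8 of them were called down, 1 of these the low RNF169, and none up, against 48.5% and 22.7% of all genes tested. Besides UBE2T, RNF4, RNF111, RNF138 and RNF169, these were the histone deubiquitinases USP3, USP16 and USP48, with log2 fold changes of -0.44, -0.53 and -0.51. HERC2 and USP11 were not called. On the quantile scale 4 of the 10 fell (UBE2T, RNF4, USP16 and USP48) and USP11 rose, at 0.32. USP11 was at 32.9, 30.7 and 30.8 TPM in control and at 37.1, 35.0 and 40.8 TPM in doxorubicin libraries, so that its groups did not overlap on the TPM scale either, and its fold was just under the limit.

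Among the TRIM proteins, TRIM6 (ENSG00000121236, chromosome 11, 5596109 to 5612958, plus strand) fell furthest. It was at 3.18, 4.93 and 3.33 TPM in control and at 1.10, 1.10 and 1.36 TPM after doxorubicin, without overlap, and the log2 fold change was -1.12 ± 0.16 (SE), at a limma adjusted p of 0.000176. It shares its strand with the readthrough gene TRIM6-TRIM34, and its reads could be split with it. TRIM16, which lacks a RING domain, fell from 18.4 ± 0.547 to 10.2 ± 0.560 TPM (mean ± SD, n = 3 each), a log2 difference of -0.80. Of the antiviral list, TRIM5, the restriction factor of retroviral capsids, TRIM25, an activator of the RNA sensor RIG-I, and TRIM14 fell by 0.70, 0.54 and 0.55 on the log2 scale. The call of TRIM14 was lost after quantile normalization, at -0.18, and without control replicate 2, at -0.47, or doxorubicin replicate 1, at -0.48. TRIM21, which binds antibodies inside cells, rose from 10.6 ± 0.262 to 13.1 ± 0.541 TPM (SD, n = 3 each).

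Leaving out libraries changed the count of TRIM rises more than that of TRIM falls, which stayed at 9 to 10. TRIM73 had the largest, a log2 fold change of 0.55, from 1.02, 0.76 and 1.42 TPM to 1.72, 2.53 and 1.81 TPM, but it has a near-identical copy, TRIM74, between which counting may have divided the reads. TRIM74 was under the limit for testing, at 0.173 TPM in control and 0.543 TPM after doxorubicin on average. TRIM3, TRIM35 and TRIM21 were called at 0.37, 0.34 and 0.27, and the count of 4 rises fell to 1 without control replicate 3 or without doxorubicin replicate 1, to 2 without control replicate 2 or doxorubicin replicate 3, and to 3 without control replicate 1.

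The F-box proteins held both the steep falls of FBXO5 and SKP2 and the largest rise of any enzyme tested on the log2(TPM + 1) scale. By the ratio of group means RNF128 rose further, 2.60-fold, from a lower level. FBXO32 (ENSG00000156804, chromosome 8, 123497889 to 123541206, minus strand), known as atrogin-1 from wasting muscle, was at 2.23, 2.58 and 4.02 TPM in control and at 4.53, 6.49 and 7.02 TPM in doxorubicin libraries. The highest control library came close to the lowest doxorubicin library without reaching it. The mean rose 2.04-fold, and the log2 fold change was 0.84 ± 0.19 (SE), at a limma adjusted p of 0.0033. FBXO22 (ENSG00000167196, chromosome 15, 75903859 to 75942510, plus strand), the receptor of the histone demethylase KDM4A, rose from 27.2, 25.1 and 29.2 TPM to 35.9, 36.3 and 34.9 TPM, and its doxorubicin libraries were nearly equal. Its log2 fold change was 0.38 ± 0.08 (SE), at a limma adjusted p of 0.00225. FBXL15, FBXO44 and FBXW5 rose by 0.45, 0.41 and 0.32 on the log2 scale, and FBXW5 was the most abundant of the class, at 65.0 ± 2.11 TPM in control and 81.3 ± 1.84 TPM after doxorubicin (SD, n = 3 each). FBXO2, which binds sugar chains on misfolded glycoproteins, was called at 0.35 and lost its call without any 1 of 4 libraries, at 0.29 to 0.34. FBXO2 and FBXO44 overlap on opposite strands, so their reads may not be separated. The same holds for FBXO22 with NRG4 and for FBXL15 with PSD. Of 11 genes on a list of quality control at the endoplasmic reticulum, 3 were in the table. UBE2J1 fell and FBXO2 rose, while RNF5, a ligase of that membrane, was not called, at a log2 fold change of 0.13, and was called up only after median ratio scaling, at 0.37.

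Of the F-box genes that fell, FBXW11, a receptor for beta-catenin and IkB proteins, was the only other one called on all 3 scales, at 17.9 ± 2.56 TPM in control and 10.4 ± 1.94 TPM after doxorubicin (mean ± SD, n = 3 each), a log2 difference of -0.74. FBXO27, at -0.75, rested in part on a high control replicate 2 of 4.29 TPM beside 1.65 and 2.45 TPM, and its value was -0.49 without that library.

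KLHL proteins fell or were not called on the TPM scale. KLHL5 went from 39.9, 32.8 and 31.7 TPM to 19.6, 17.6 and 21.6 TPM, with all doxorubicin libraries lower, and the log2 fold change was -0.80 ± 0.11 (SE), at a limma adjusted p of 0.000183. KLHL13, a receptor for Aurora B, and KLHL29 had log2 fold changes of -0.72 each, and these 3 were called on all 3 scales. KLHL9, the partner of KLHL13, fell by 0.46 on the TPM scale only. KLHL22, at 17.3 ± 1.62 and 18.7 ± 1.25 TPM (SD, n = 3 each), was the only KLHL gene tested with a positive log2 fold change on the TPM scale, 0.11, and it was called up on the other scales. CUL5 was the only cullin in the table, at 6.02, 5.80 and 5.47 TPM in control and 4.61, 4.04 and 4.99 TPM after doxorubicin. Its log2 fold change of -0.29 was near the median of all genes tested, and it was 0.08 after quantile normalization and -0.09 after median ratio scaling, without a call on either. Its call was also lost without any 1 of 5 libraries, at -0.32 to -0.22.

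Among the deubiquitinases, USP53 (ENSG00000145390, chromosome 4, 119212587 to 119295517, plus strand), a protein of tight junctions, had the largest log2 fall. It was at 14.1, 11.7 and 9.87 TPM in control and at 4.58, 2.59 and 7.17 TPM in doxorubicin libraries, a wide spread in which no doxorubicin library reached a control library. Its log2 fold change was -1.22 ± 0.27 (SE), at a limma adjusted p of 0.00314. USP24 (ENSG00000162402, chromosome 1, 55066359 to 55215113, minus strand) was at 10.7, 13.2 and 9.29 TPM in control and at 4.85, 3.33 and 6.15 TPM after doxorubicin, and USP44, which acts in the spindle checkpoint, at 5.08, 5.47 and 5.21 TPM and then at 2.51, 2.26 and 2.60 TPM. Neither gene overlapped between the groups, and their log2 fold changes were -1.08 and -0.86. UCHL5, which sits on the proteasome, USP8, which sorts receptors in endosomes, and USP10, which acts on p53, fell by 0.60, 0.50 and 0.50 on the log2 scale and were among the 9 deubiquitinases called down on all 3 scales. The gene USP6NL, also among the 9, carries the family's prefix but encodes a protein that acts on Rab GTPases and cuts no ubiquitin.

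Relatives among the deubiquitinases fell on the TPM scale, as did all 20 deubiquitinases called there, so their shared direction says nothing about kinship. USP28, a partner of the damage protein 53BP1, and its relative USP25 fell by 0.64 and 0.33, and USP46 and USP12, which share the cofactor WDR48, by 0.62 and 0.34. None of the 4 was called after quantile normalization. USP25 lost its call without control replicate 2, at -0.19, doxorubicin replicate 1, at -0.28, or doxorubicin replicate 2, at -0.32, and USP12 without control replicate 2, at -0.24, or doxorubicin replicate 1, at -0.35. The abundant UCHL3, which cleaves ubiquitin and NEDD8, was at 61.8, 66.6 and 65.1 TPM in control and at 75.6, 82.7 and 70.4 TPM after doxorubicin. OTUD5 was at 37.5, 39.7 and 39.3 TPM and then at 41.4, 44.5 and 48.3 TPM. Both were higher in every doxorubicin library, by 0.24 and 0.20 on the log2 scale, short of the fold limit on the TPM scale.

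The p53 list had 4 of 11 genes in the table. On the TPM scale FBXO22 rose, and USP10, USP28 and UBE4B fell, where 22.7% of all genes tested were called up and 48.5% down. After quantile normalization FBXO22 was called up and only USP10 down. After median ratio scaling FBXO22 was called up, and USP10 and USP28 down. Outside the symbol families, the ligase MDM2, which degrades p53 and is itself induced by it, was at 45.8, 44.8 and 36.6 TPM in control and at 110, 109 and 90.0 TPM after doxorubicin, all higher, and the log2 fold change was 1.26 ± 0.11 (SE), at a limma adjusted p of 6.42e-06. Of 17 other ligases listed outside the families, 1 was called up, MDM2, and 13 down, with the largest fall in UHRF1, the ligase of hemimethylated DNA, from 20.3 ± 0.878 to 4.05 ± 0.862 TPM (SD, n = 3 each). These counts, against 22.7% of all genes tested called up and 48.5% down, changed with the scale, with 3 falls and 2 rises after quantile normalization, and 7 falls and 3 rises on the median ratio scale.

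Of 12 cullin partners and COP9 signalosome genes in the table, 4 rose and 4 fell, against 22.7% of all genes tested called up and 48.5% down. After quantile normalization 4 rose and 1 fell, and after median ratio scaling 8 rose and 1 fell. The largest changes were those of DDB2, a damage sensor of the CUL4 ligase, which rose from 28.8 ± 1.09 to 58.9 ± 3.79 TPM, and DCUN1D1, a cofactor of cullin neddylation, which fell from 7.56 ± 0.505 to 4.59 ± 0.933 TPM (SD, n = 3 each). Of 6 E1 enzymes and modifier genes, 2 rose and 2 fell, furthest ISG15, a modifier induced by interferon, at a log2 fold change of 0.51, and the E1 enzyme UBA6, at one of -0.96. Of 9 other deubiquitinases and SUMO proteases, 1 rose, JOSD2 at 0.29, and 5 fell, furthest SENP7 at -0.99. On the quantile scale the E1 and modifier list had 2 rises and 2 falls, and this last list 2 rises and 3 falls. After median ratio scaling the former had 4 rises and 1 fall, and the latter 4 rises and 3 falls.

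Levels in control cells ran from 0.07 to 227 TPM, with 4 genes over 100 TPM and 68 under 10 TPM, and the median went from 10.2 TPM in control to 7.63 TPM after doxorubicin. The 138 genes summed to 2453 to 2608 TPM in control and to 2229 to 2424 TPM in doxorubicin libraries, without overlap. Without RNF181 the sums were 2224 to 2382 and 1911 to 2129 TPM. The sums of E2 enzymes, HECT ligases, TRIM proteins, KLHL proteins and deubiquitinases were lower in every doxorubicin library, and the RNF sum was higher, at 743 to 767 against 827 to 855 TPM. Without RNF181 the RNF sums overlapped, at 514 to 541 and 526 to 544 TPM.

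**Figure D4:**
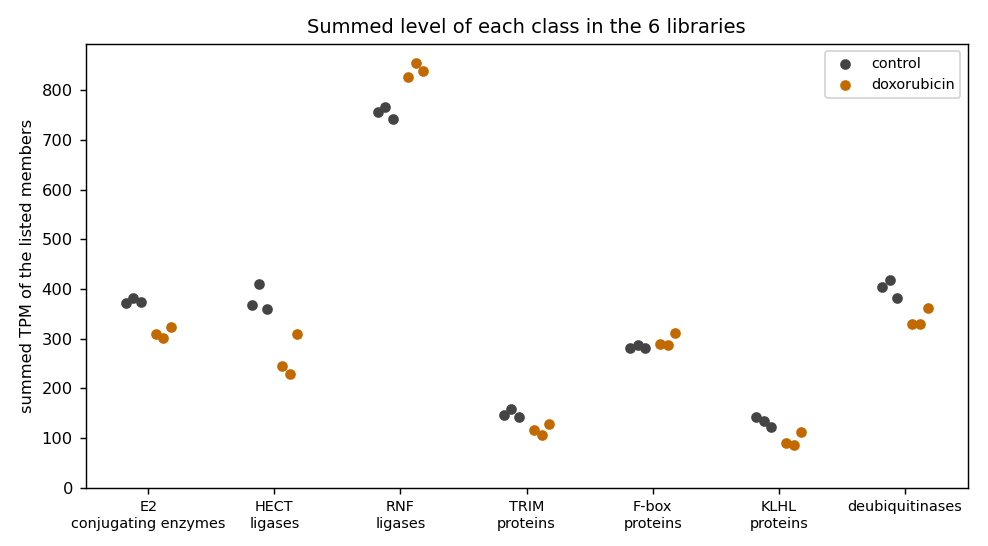
Summed TPM (y axis, from 0) of the listed genes of each class with more than 2 genes in each control (grey) and doxorubicin (orange) library. RNF ligases are the only class with all doxorubicin sums above all control sums, and F-box sums overlap at 281 to 288 and 288 to 311 TPM.

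The doxorubicin libraries were not equally far from control. In 68 of the 80 enzymes called down (85.0%), doxorubicin replicate 3 was the doxorubicin library nearest to the control mean, and this held for 77.8% of all genes called down. Of the 16 enzymes called up, replicate 3 was nearest in 2 (12.5%), against 47.6% of all genes called up. Doxorubicin replicate 2 was nearest in 8 of the 16 (50%), against 22.4%. Without doxorubicin replicate 3, 99 enzymes were called, 13 up and 86 down, with a median of -0.50, against 96 calls, 16 up and 80 down, with it.

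Longer genes were lower more often, among the enzymes as over the whole table. Of 46 genes tested that span over 100 kb, 33 were called down and 1, RNF128, up, while of 20 under 10 kb 4 were called down and 7 up. Over all genes tested, 75.6% of those over 100 kb were called down and 45.5% of those under 10 kb called up. Spearman's rho of span and log2 fold change was -0.33 over the 132 enzymes and -0.44 over 5700 genes tested with a position. These are descriptions across genes of the same 6 libraries, and genes are not independent replicates. By class, rho was -0.49 over 29 RNF ligases, -0.58 over 12 KLHL genes, 0.05 over 26 deubiquitinases and 0.57 over 13 HECT ligases. UBE2T, FBXO5, TRIM6, UBE2S and SKP2 were steep falls in genes that span from 8033 bp (UBE2S) to 32331 bp (SKP2), while USP53 and USP24 span 82931 and 148755 bp. The part of gene length in these results was not tested.

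**Figure D5:**
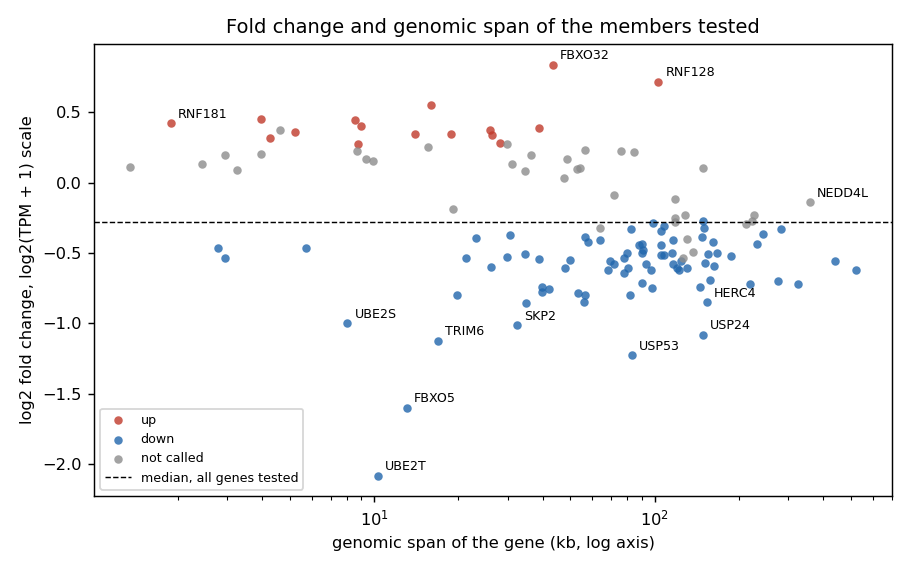
Log2 fold change on the log2(TPM + 1) scale (y axis) against the genomic span of the gene in kb (x axis, log axis) for the 132 enzymes tested, red if called up, blue if called down and grey if not called, with the median of all genes tested dashed. Genes over 100 kb lie mostly below 0, and the steep falls of UBE2T, FBXO5, UBE2S and SKP2 lie left of them.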

How the data were processed

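RNA of 9 WI-38 libraries in 3 groups of 3 was sequenced, and 1 table deposited by the authors holds, for each gene, the values of the 6 control and doxorubicin libraries. Its header names no unit. The values were taken as TPM made by the authors, since the submitters' processing notes name RSEM, beside CASAVA, HISAT2, StringTie, DESeq2 and edgeR, with no versions or roles. The notes name the mouse build GRCm38, while the gene identifiers are human Ensembl ones, so positions were taken from GENCODE release 29 (GRCh38) through the identifiers, which matched for all 138 genes. The table's fold changes, p-values, adjusted p-values, group means and direction labels are the authors' own results and were not used. TPM keeps no read depth, so depth per library is unknown, no counting interval is given and precision rests on 3 replicates. Some enzymes named without a limit on overlap also overlap a coding gene, such as SMURF2 with CEP95 and UCHL5 with TROVE2 on opposite strands. Others overlap a coding gene on the same strand, such as RNF4 with CFAP99 and FAM193A, UBE2F with UBE2F-SCLY and RNF7 with AC112504.2. Their reads may not be separated either. Since TPM sums to a fixed total, a rise of abundant genes lowers the others, so 2 other scalings were run.

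Genes whose mean reached 1 TPM were kept (5721 of 6499), values were put on a log2 scale after adding 1, and a mean per group was fitted to the whole table in R 4.3.3 with limma 3.58.1 and its robust, trended eBayes, with the Benjamini-Hochberg adjustment over all genes tested. Simulated data with known changes served to check the fit. An exact permutation test, two-sided, has no p under 0.1 with 3 libraries a side, so none is quoted. The 6 enzymes not tested, with a mean under 1 TPM, were KLHL11, KLHL15, TRIM54, TRIM58, TRIM74 and USP37. Of the 138 genes 137 are annotated as protein coding.

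The genes and all lists were chosen with earlier results of these data known. Genes were named by rule, as the 3 largest rises and falls of each class among called genes without overlap, the members of the functional lists and sets of relatives, the 2 most abundant of each class, and the largest rise and fall of each list outside the families. UBE2H, UBE2O, FBXW11, FBXL18, RNF31, RNF167, RNF19B, RNF26, KLHL9, KLHL36, UCHL5, USP8, USP6NL and HERC2P3 were named beyond it, after their values were seen. Alternatives were a pseudocount of 0.1, no filter and a filter at 5 TPM, quantile normalization, median ratio scaling, the replicate number as a block, unadjusted p, a fold of 1.5 and each library left out. Same-numbered libraries deviated from their group means with correlations of -0.06, -0.19 and -0.23 across genes, so the numbers were not taken as pairs. Promoter windows are those of RefSeq. Software was Python 3.11.15, SciPy 1.17.1, NumPy 2.4.6, pandas 2.3.3 and, for figures, matplotlib 3.10.9.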

Additional observations from a re-analysis of the deposited data

How the results depend on the processing

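Of the 132 enzymes tested, 11 rises and 34 falls were called at the 1.2 fold limit in every alternative fit that tested them, RNF128 among the rises and RNF157 among the falls with 1 group mean under the 1 TPM limit for testing. On 3 replicates a side, with depth unknown, smaller changes could not be resolved. A filter at 5 TPM left 90 enzymes, with 63 called and 51 down. By class these were 7 E2, 6 HECT, 2 U-box, 7 RNF, 6 TRIM, 0 CBL, 1 cullin, 4 F-box, 5 KLHL and 13 deubiquitinase falls. After quantile normalization 31 were called up and 35 down (median -0.14). The falls were then 5 E2, 4 HECT, 1 U-box, 6 RNF, 4 TRIM, 0 CBL, 0 cullin, 3 F-box, 3 KLHL and 9 deubiquitinases, and the rises 13 RNF, 5 TRIM, 11 F-box, 1 KLHL and 1 deubiquitinase. CUL5 and FBXL18, called down on the TPM scale, were at 0.083 and 0.038 there, without a call. After median ratio scaling 36 were called up and 58 down (median -0.22). The rises were then 2 E2, 14 RNF, 5 TRIM, 11 F-box, 1 KLHL and 3 deubiquitinases, and the falls 5 E2, 5 HECT, 1 U-box, 8 RNF, 10 TRIM, 1 CBL, 0 cullin, 9 F-box, 6 KLHL and 13 deubiquitinases. No share of all genes tested was computed for the calls kept in every fit, at 5 TPM or at a fold over 1.5. At a fold over 1.5, 37 were called, 2 up (RNF128 and FBXO32) and 35 down. The rises were 1 RNF, 0 TRIM and 1 F-box, and the falls 5 E2, 3 HECT, 1 U-box, 6 RNF, 4 TRIM, 0 CBL, 0 cullin, 5 F-box, 4 KLHL and 7 deubiquitinases. Leaving out each library in turn gave 81 to 99 calls, 12 to 17 up and 68 to 86 down, and a median of -0.50 to -0.36. Among the classes, the counts that moved by over 1.5 times were 1 to 2 U-box and 0 to 1 cullin falls and 1 to 4 TRIM and 0 to 1 deubiquitinase rises. Fits without a library that leave an arm of 2 pool the spread over both groups. With an unadjusted p 98 were called, without a filter 100 of 138, and with a pseudocount of 0.1 the count was 96. Beyond the scalings, the cause of these moves was not tested.

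With the replicate number as a block, 90 enzymes were called, 12 up and 78 down, with 2 TRIM rises and 0 cullin falls. Neither the labels nor the methods say whether the numbers pair the libraries, and they were not taken as pairs here. A call lost under this block was not read either way.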
